A study of Homo sapiens with 24 samples.

Results

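The mitosis, spindle and condensin genes are 52 genes chosen for their known roles in G2, mitosis and cytokinesis and found by gene symbol. All 52 were present among the 22227 genes of the ligand experiment and the 23028 genes of the siRNA experiment. Both experiments used LNCaP, an established line of androgen-responsive prostate adenocarcinoma cells, held for 3 days in charcoal-stripped serum, which is low in steroids, before treatment. In the ligand experiment, cells received vehicle, 10 nM of the androgen dihydrotestosterone (DHT) or 10 µM of the antiandrogen enzalutamide (MDV in the labels), and RNA was taken after 4 h or 24 h of DHT or enzalutamide. The labels give no time for vehicle, and the same vehicle libraries served the comparisons at 4 h and at 24 h. Time after the start of treatment was therefore not separated from 24 h of ligand. In the siRNA experiment, cells carrying a control siRNA pool (siControl) or a pool of 4 siRNAs against the transcription factor GATA2 (siGATA2) received vehicle or, for 24 h, enzalutamide at 25 µM. Each ligand condition had 2 replicates and each siRNA condition 3, all named biological replicates in the labels, which do not say whether they came from separate cultures, so p-values measure the spread between these samples. The ligand vehicle has 4 labelled samples, but 3 of their columns carry the number of replicate 1. For that number alone they were summed and counted as 1 sample, and whether they are runs of 1 sample or separate samples was not settled by their counts. They differed from each other by a mean chi-square per gene of 1.53 to 1.56 and from the other vehicle sample by 3.56 to 3.74, while replicates of the treated conditions, which are deeper than those 3 columns, differed by 2.03 (DHT 4 h), 2.28 (enzalutamide 24 h), 4.57 (DHT 24 h) and 9.82 (enzalutamide 4 h), and this measure grows with depth. After this step the 10 ligand libraries held 38894849 to 59985231 estimated counts, given below as CPM, which scales counts to the library total multiplied by its TMM factor, a trimmed-mean correction for library composition, and not to gene length. The 12 siRNA libraries are in RPKM, which scales reads by gene length and library depth, and the smallest steps of their values correspond to about 58900000 to 76900000 mapped reads.

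Cells entering mitosis transcribe a shared set of genes late in the cell cycle, peaking in G2 and M phase. The MuvB complex represses these genes in resting cells together with the other DREAM proteins, and in cycling cells it binds the activators MYBL2 (B-MYB) and then FOXM1 at promoters carrying a cell cycle genes homology region (CHR), often with upstream CCAAT boxes bound by NF-Y. Their products run the cyclin B-CDK1 switch, condense chromosomes, build the spindle and kinetochores, delay anaphase until all chromosomes are attached, and divide the cell, and LNCaP cells depend on androgen signalling to proliferate.

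Promoters of 45 of the 52 members had an entry among the RefSeq promoters (build GRCh38.p14), which run from 250 bases before to 50 bases after a gene's start. FOXM1, BIRC5, BUB3, TTK, AURKA, TPX2 and UBE2C had none. The CHR letters (TTTGAA or TTCGAA, searched on both strands) were in 70.4% of the 54 member promoters and in 16.4% of all 35116 promoters. The CCAAT letters, also on both strands, were in 72.2% and 34.6%, and both motifs together in 55.6% and 6.38%. Within the 40 bases before the start, a window chosen after the positions were seen, the CHR letters began in 40.7% of member promoters and 2.23% of all promoters. A match is a description of these letters and not a binding site, and a promoter without one only lacks these letters in this window.

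The 100 bases before the start are shown for 6 members that all fell after 24 h of enzalutamide and rose after 24 h of DHT. They were chosen after the matches were seen, using the start with most matches within those 100 bases, to show how the motifs are arranged. They are CDK1 at chr10:60778378-60778477 on the plus strand, CCNB2 at chr15:59105046-59105145 on the plus strand, CDC25C at chr5:138331805-138331904 on the minus strand, PLK1 at chr16:23678789-23678888 on the plus strand, KIF11 at chr10:92593030-92593129 on the plus strand and NCAPG at chr4:17810879-17810978 on the plus strand (RefSeq, GRCh38.p14), all upstream of the annotated start. Each reads 5′ to 3′ on the gene's strand, and capitals mark the CHR and CCAAT letters on either strand (TTCAAA and ATTGG are their reverse complements). The CDK1 stretch holds 2 CHR and 2 CCAAT matches, and that of NCAPG, a condensin subunit, holds 1 CHR match and 0 CCAAT matches.
CDK1: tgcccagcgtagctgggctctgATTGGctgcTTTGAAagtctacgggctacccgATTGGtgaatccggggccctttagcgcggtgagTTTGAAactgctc
CCNB2: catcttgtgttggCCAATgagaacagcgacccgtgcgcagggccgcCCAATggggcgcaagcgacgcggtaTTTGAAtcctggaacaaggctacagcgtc
CDC25C: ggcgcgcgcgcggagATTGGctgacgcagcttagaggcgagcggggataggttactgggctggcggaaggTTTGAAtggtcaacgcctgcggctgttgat
PLK1: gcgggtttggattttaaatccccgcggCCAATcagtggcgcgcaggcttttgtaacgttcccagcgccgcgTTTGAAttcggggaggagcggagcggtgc
KIF11: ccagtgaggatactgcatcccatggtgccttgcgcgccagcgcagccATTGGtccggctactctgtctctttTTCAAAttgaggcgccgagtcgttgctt
NCAPG: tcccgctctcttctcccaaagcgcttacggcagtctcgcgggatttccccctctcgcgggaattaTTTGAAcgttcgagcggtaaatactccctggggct

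Levels can be compared between genes only per length, so the order of the members was taken from the siControl vehicle libraries in RPKM (mean ± SD, n = 3). CDK1, the kinase that starts mitosis, was the most abundant member at 156 ± 5.75 RPKM, followed by its small binding partner CKS2 at 78.6 ± 2.204 and its cyclin CCNB1 at 53.3 ± 2.32. The condensin subunit NCAPD2, also named for its rank, stood at 50.7 ± 0.369 RPKM, and MYBL2 at 41.8 ± 1.38 differed from the checkpoint protein BUB3 at 40.8 ± 0.916 by less than its own SD. FOXM1 was at 38.6 ± 0.286 RPKM, the chromosomal passenger protein BIRC5 (survivin) at 31.4 ± 0.826 and the kinase PLK1 at 29.3 ± 1.15. The lowest members were the spindle pole protein ASPM at 4.35 ± 0.446 RPKM and the kinesin KIF18A at 2.47 ± 0.210, named here for their rank. CKS1B, the paralog of CKS2, stood at 6.11 ± 0.315 RPKM, and since the counting could have split reads between such close paralogs, the values of both are uncertain. The luminal keratin KRT8, named here for what it marks, was high in the same libraries at 112, 102 and 112 RPKM.

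After 24 h of enzalutamide the whole group was lower than in vehicle in the ligand experiment. All 52 members fell against vehicle, where 17% of the 15555 genes tested fell and 16.4% rose. In each of the 52 both enzalutamide libraries lay below both vehicle libraries, and the share of all genes with that order was not counted. No member rose (0 by edgeR, 0 at an unadjusted p under 0.05 and 0 by DESeq2). The median log2 change was -1.22, so that the median member kept 43.0% of its vehicle level, against a median of 0.01 over all genes tested. The summed level of the 52 members was 4055 and 3974 CPM in vehicle and 1879 and 1869.8 CPM after 24 h. In bulk RNA, fewer cells in G2 and M phase and less of these RNAs per cell cannot be told apart. The largest adjusted p among the 52 was 5.40e-06 for a log2 change of -0.37 in BUB3 (edgeR quasi-likelihood, Benjamini-Hochberg, 2 libraries below 2). Column names in the ligand tables open with a set code, whose meaning the labels do not give. Only 1 vehicle column carries the same set code as these libraries. When vehicle was restricted to it, an alternative chosen after seeing the data, the median log2 change of the 52 members was -1.20.

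Among the genes of mitotic entry, all 8 fell (median log2 change -1.09, range -1.49 to -0.78). CDK1 measured 234 and 218 CPM in the vehicle libraries and 82.1 and 78.5 CPM after 24 h of enzalutamide. The treated libraries lay far below vehicle and close to each other, a log2 change of -1.49 (SE 0.057, edgeR quasi-likelihood, Benjamini-Hochberg adjusted p = 5.56e-10, 2 libraries below 2). CCNB1, the cyclin that activates CDK1, went from 179 and 183 CPM to 97.1 and 92.9 CPM, a smaller change of -0.93. PLK1, the polo-like kinase that promotes entry and spindle assembly, went from 67.96 and 68 CPM to 27.03 and 25.9 CPM, a change of -1.36. The paralogs CKS1B and CKS2, small subunits of CDK complexes, went from 34.6 and 32.6 to 19.3 and 19.8 CPM and from 51.4 and 51.9 to 26.1 and 27.1 CPM. For neither of them did the conditions overlap, and their log2 changes were -0.78 and -0.96.

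The 2 transcription factors of the programme fell to different extents. MYBL2 stood at 87.7 and 93.02 CPM in vehicle and at 31.96 and 30.5 CPM after 24 h, the largest fall of any member at -1.53 (SE 0.047, edgeR quasi-likelihood, Benjamini-Hochberg adjusted p = 2.03e-10, 2 libraries below 2). FOXM1 stood at 124 and 129 CPM and 67.7 and 66.1 CPM, a fall of -0.91, and its libraries did not overlap either. All 4 members of the chromosomal passenger complex, which corrects wrong spindle attachments, fell (median log2 change -1.22, range -1.52 to -1.10). Its kinase AURKB went from 18.2 and 18.98 CPM to 6.39 and 6.51 CPM (-1.52), and BIRC5, which brings the complex to centromeres, from 89.8 and 88.5 to 40.5 and 39.8 CPM (-1.15). AURKB was thus left at about the same share of vehicle as MYBL2, and BIRC5 at a higher one.

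The 5 spindle checkpoint genes, whose products hold back anaphase, all fell, with the widest spread of any role (median log2 change -1.17, range -1.36 to -0.37). BUB1, a checkpoint kinase, went from 53.9 and 55.6 CPM to 25.2 and 24.4 CPM (-1.14). BUB3, the adaptor that places BUB1 at kinetochores, went only from 129.5 and 128 CPM to 98.4 and 101 CPM (-0.37), the smallest fall of the 52. All 7 genes of the centromere and outer kinetochore fell (median log2 change -1.29, range -1.52 to -0.84). NDC80, which grips microtubules, measured 49.2 and 51.1 CPM in vehicle and 17.5 and 17.4 CPM after 24 h (-1.52), and CENPA, the centromeric histone, went from 13 and 10.9 CPM to 5.11 and 4.72 CPM (-1.29). Vehicle replicates of CENPA were further apart than those of NDC80, yet both lay above both treated libraries.

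All 10 spindle motors and microtubule-associated proteins fell (median log2 change -1.20, range -1.37 to -1.02), a narrow range. The spindle-separating kinesin KIF11 went from 63.6 and 56.4 CPM to 24.6 and 24.1 CPM (-1.31), and the spindle assembly factor TPX2 from 143 and 135 to 63.2 and 62.2 CPM (-1.15). The 6 condensin and topoisomerase genes fell (median log2 change -1.02, range -1.43 to -0.81), with the condensin I subunit NCAPG going from 70.7 and 68.5 to 25.2 and 26.5 CPM (-1.43). TOP2A, which untangles sister chromatids, went from 213 and 199 to 99.7 and 97.99 CPM (-1.06). Among the 4 genes of anaphase promotion and sister separation (median log2 change -1.28, range -1.38 to -0.74), the ubiquitin-conjugating enzyme UBE2C went from 36.3 and 38.6 to 15.04 and 13.7 CPM (-1.38). PTTG1 (securin), the inhibitor of separase, went from 38.3 and 39.1 to 23.6 and 22.6 CPM, a change of -0.74, the smallest in that role. The 6 midzone and cytokinesis genes fell (median log2 change -1.36, range -1.43 to -1.03), with the midzone kinesin KIF20A at 59.1 and 60.6 CPM in vehicle and 22.4 and 23.1 CPM after 24 h (-1.39). In none of these named genes did treated and vehicle libraries overlap.

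**Figure D1:**
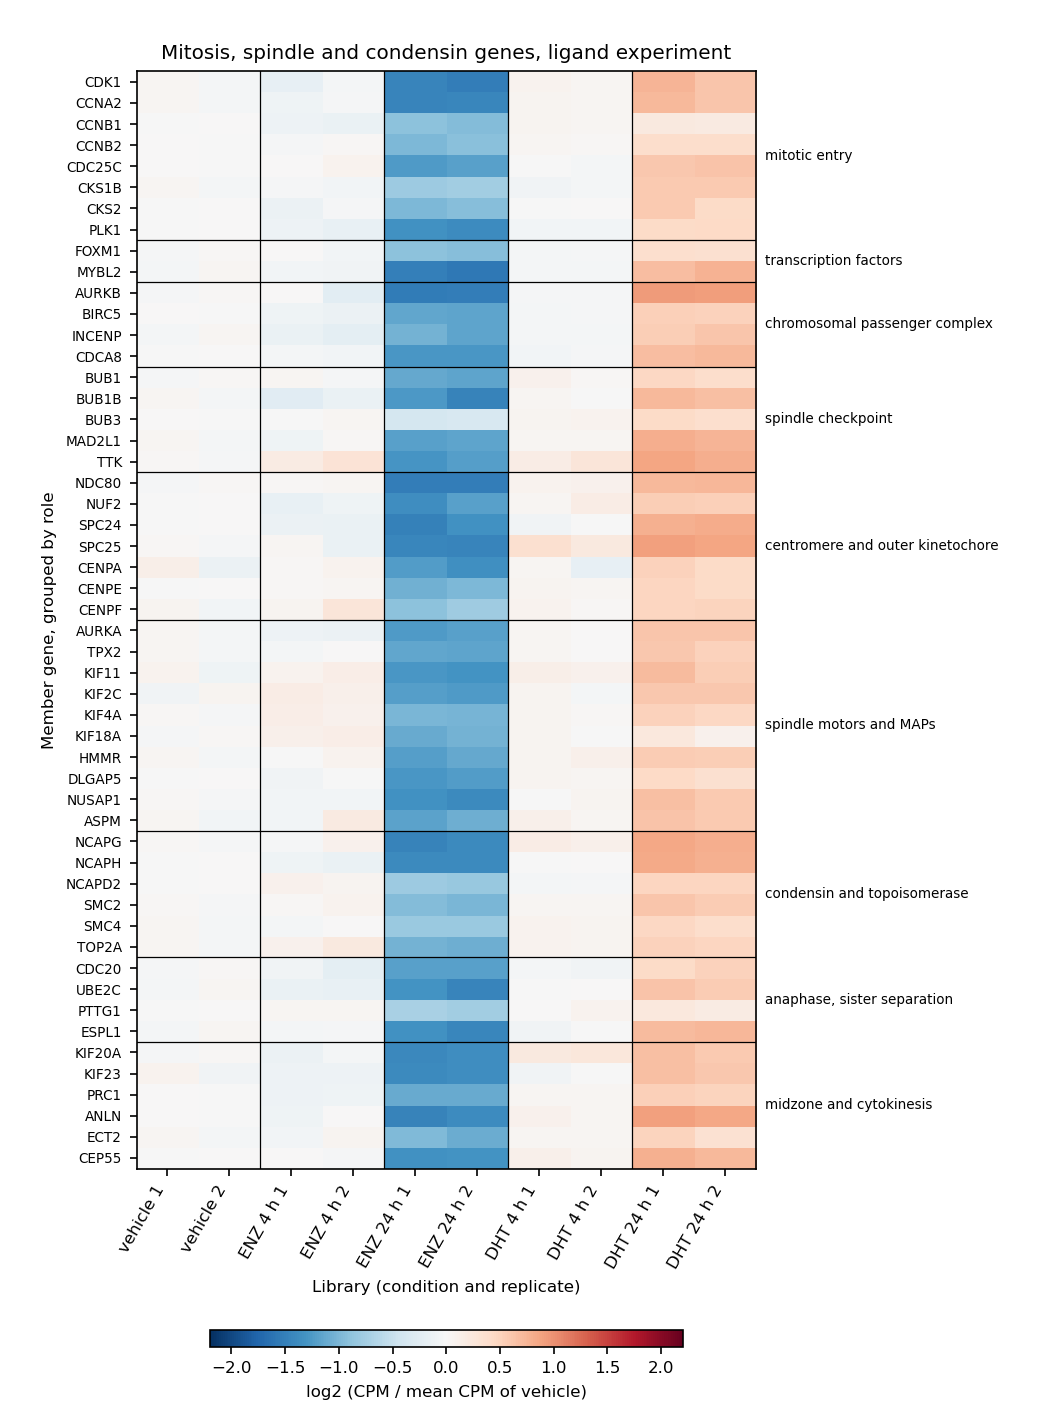
Log2 of each library's CPM over the mean vehicle CPM for the 52 members (rows, by role) in the 10 ligand libraries (columns), with the 3 columns of vehicle replicate 1 summed. All 52 members are lower in both libraries of enzalutamide at 24 h and higher in both libraries of DHT at 24 h than in vehicle, and the 4 h columns lie near vehicle.

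After 4 h of enzalutamide the members were near vehicle. By edgeR, 4 of 52 members fell and 2 rose, against 6.68% of all genes tested that fell and 6.94% that rose, shares close to those of the members, so these counts are no result about the group. The median log2 change was -0.03. The 4 that fell were the checkpoint kinase-like BUB1B (-0.20), the passenger complex scaffold INCENP (-0.18), PLK1 (-0.14) and CCNB1 (-0.13). PLK1 measured 62.7 and 60.5 CPM and CCNB1 167 and 163 CPM after 4 h, both below both vehicle libraries. The 2 that rose were the checkpoint kinase TTK, at 30.4 and 29.3 CPM in vehicle and 33.9 and 36.7 CPM after 4 h (0.24, edgeR quasi-likelihood, Benjamini-Hochberg adjusted p = 0.0160, 2 libraries above 2), and TOP2A at 220.1 and 239 CPM (0.16). CDK1 was at 199.6 and 219 CPM and MYBL2 at 87.02 and 85.5 CPM, with log2 differences of -0.11 and -0.07 that did not pass the test. These calls rested on single libraries, and the counts below do not say which members passed. Without vehicle replicate 2, both TTK (0.21) and TOP2A (0.11) lost their calls. The number that fell was 0 without DHT 4 h replicate 1 or replicate 2 or vehicle replicate 1 or replicate 2, and 1 without enzalutamide 4 h replicate 2. The number that rose was 1 without DHT 4 h replicate 1 or 2, enzalutamide 24 h replicate 1 or 2 or vehicle replicate 1 or 2, 0 without enzalutamide 4 h replicate 2 and 4 without enzalutamide 4 h replicate 1. In a fit of only the 2 conditions compared, 0 fell and 0 rose by edgeR. Only 1 vehicle column carries the same set code as these libraries, and restricting vehicle to it was chosen after seeing the data. The log2 differences were then -0.26 in BUB1B, -0.11 in INCENP, -0.18 in PLK1, -0.056 in CCNB1, 0.24 in TTK and 0.11 in TOP2A. With the 4 vehicle columns taken as separate samples 9 fell and 3 rose. With the set code as a term besides, also chosen after seeing the data, 4 fell and 1 rose. CCNB1 (-0.084), PLK1 (-0.16), INCENP (-0.12), TTK (0.21) and TOP2A (0.092) lost their calls there, while CDK1 (-0.21) and BIRC5 (-0.15) gained one.

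The direct comparison of 24 h with 4 h of enzalutamide gave 52 members lower at 24 h, against 12.9% of all genes that were lower and 11.7% higher. No member was higher at 24 h (0 by edgeR, 0 at an unadjusted p under 0.05, 0 by DESeq2). The median log2 difference was -1.21, and the largest were in NDC80 (-1.55), TTK (-1.49) and MYBL2 (-1.47). TTK stood at 12.1 and 12.96 CPM at 24 h, far below its 4 h values. The 4 h and 24 h libraries carry different set codes, and vehicle has a column in each set. With the set code as a term and the 4 vehicle columns as samples, an alternative chosen after seeing the data, 52 members were lower at 24 h with a median log2 difference of -1.19. If the 3 columns of vehicle replicate 1 are runs of 1 sample, p-values from that fit are too small. No vehicle is labelled with a time, so time in culture was not separated from time on enzalutamide.

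After 24 h of DHT nearly the whole group was higher than in vehicle. Against vehicle, 51 of 52 members rose, where 26.9% of all genes tested rose and 23.2% fell. All 52 had both DHT libraries above both vehicle libraries, and the share of all genes with that order was not counted. No member fell (0 by edgeR, 0 at an unadjusted p under 0.05, 0 by DESeq2). The median log2 change was 0.58, against 0.00 over all genes, and the summed level was 5955 and 5779 CPM. The member that did not pass was KIF18A, a kinesin that damps chromosome movements, with 12.04 and 12.6 CPM in vehicle and 14.4 and 13.1 CPM after DHT (0.16, edgeR quasi-likelihood, Benjamini-Hochberg adjusted p = 0.0686, 2 libraries above 2), named after its value was seen. DHT and enzalutamide were compared with the same vehicle libraries, so their values are set side by side and not related to each other.

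The largest rises were in AURKB, the outer kinetochore protein SPC25 and the contractile ring protein ANLN (anillin). AURKB went from 18.2 and 18.98 CPM in vehicle to 35.6 and 35.1 CPM (0.93, SE 0.067, edgeR quasi-likelihood, Benjamini-Hochberg adjusted p = 1.24e-07, 2 libraries above 2). SPC25 went from 11.8 and 11.5 to 21.7 and 21.3 CPM (0.88) and ANLN from 83.97 and 83.5 to 157 and 152 CPM (0.88). For these genes DHT came near to doubling the vehicle level, with replicates close together. CDK1 rose to 381 and 346 CPM (0.69), MYBL2 to 145 and 153 CPM (0.73) and NCAPG to 126 and 122 CPM (0.83). CCNB1, at 211 and 206 CPM (0.21), and PTTG1, at 45.5 and 43.9 CPM (0.21), rose much less. By role, medians ran from 0.53 in anaphase promotion and sister separation to 0.68 in the spindle checkpoint. Every role other than the spindle motors, where 9 of 10 passed, had all its members called. The vehicle columns of the same set codes all carry replicate 1, which was counted as 1 sample. With only those, chosen after seeing the data, the median log2 change was 0.54, and that of CENPA was 0.22 in place of 0.45. With the set code as a term and the 4 vehicle columns as samples 50 rose, and CENPA did not pass (0.22).

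After 4 h of DHT 3 of 52 members rose, close to the 4.66% of all genes that rose, so this count is no result about the group; 2.11% of all genes fell. No member fell (0 by edgeR, 0 at an unadjusted p under 0.05, 0 by DESeq2), and the median log2 change was 0.04. The 3 were SPC25 at 14.95 and 13.6 CPM (0.29), KIF20A at 69.3 and 70.9 CPM (0.23, edgeR quasi-likelihood, Benjamini-Hochberg adjusted p = 0.00610, 2 libraries above 2) and TTK at 33.5 and 35.9 CPM (0.21). SPC25 (0.29) and TTK (0.22) lost their calls by DESeq2, at log2 changes about as large. TTK also lost its call with library totals (0.20) and with vehicle of the same set code (0.21). It did so too with the set code as a term and the 4 vehicle columns as samples (0.21), the last 2 chosen after seeing the data. The number that rose was 1 by DESeq2, 1 without DHT 4 h replicate 1, enzalutamide 24 h replicate 1 or 2 or vehicle replicate 2, and 0 without DHT 4 h replicate 2 or vehicle replicate 1. The androgen target TMPRSS2 already stood at 441 and 441 CPM at 4 h against 75.6 and 74.6 CPM in vehicle, and KLK3 (prostate-specific antigen) at 608 and 631 against 259 and 253 CPM. At 24 h TMPRSS2 stood at 379 and 383 CPM and KLK3 at 2095 and 2139 CPM with DHT, while with enzalutamide TMPRSS2 was at 72.98 and 68.95 CPM at 4 h and 57.9 and 61.1 CPM at 24 h, and KLK3 at 224 and 194 and 109 and 111 CPM. At 24 h against 4 h of DHT, 51 members were higher, where 26.3% of all genes were higher and 23.5% lower, with a median log2 difference of 0.53. No member was lower (0 by edgeR, 0 at an unadjusted p under 0.05, 0 by DESeq2), and KIF18A again did not pass (0.14, edgeR quasi-likelihood, Benjamini-Hochberg adjusted p = 0.108, 2 libraries above 2). The largest differences were in AURKB (0.95), the outer kinetochore protein SPC24 (0.85) and ANLN (0.82). DHT at 4 h and at 24 h also carry different set codes, with the 2 libraries at 24 h in different sets. With the set code as a term and the 4 vehicle columns as samples 49 members were higher at 24 h, with a median of 0.51. CENPA (0.16 in place of 0.53) and PTTG1 (0.17 in both fits) lost their calls there, and PTTG1 also without DHT 24 h replicate 1 or DHT 4 h replicate 1 (0.13 and 0.14).

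Set against each other at 24 h, all 52 members were higher with DHT than with enzalutamide, where 31.3% of all genes were higher and 33.6% lower. No member was lower with DHT (0 by edgeR, 0 at an unadjusted p under 0.05, 0 by DESeq2). The median log2 difference was 1.77, which is 3.41-fold. It was largest in AURKB (2.45, edgeR quasi-likelihood, Benjamini-Hochberg adjusted p = 9.77e-12, 2 libraries above 2), SPC25 (2.33) and ANLN (2.31) and smallest in BUB3 (0.76). SPC25 stood at 4.34 and 4.25 CPM with enzalutamide and ANLN at 30.2 and 32.1 CPM, below vehicle, whereas both were above vehicle with DHT.

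**Figure D2:**
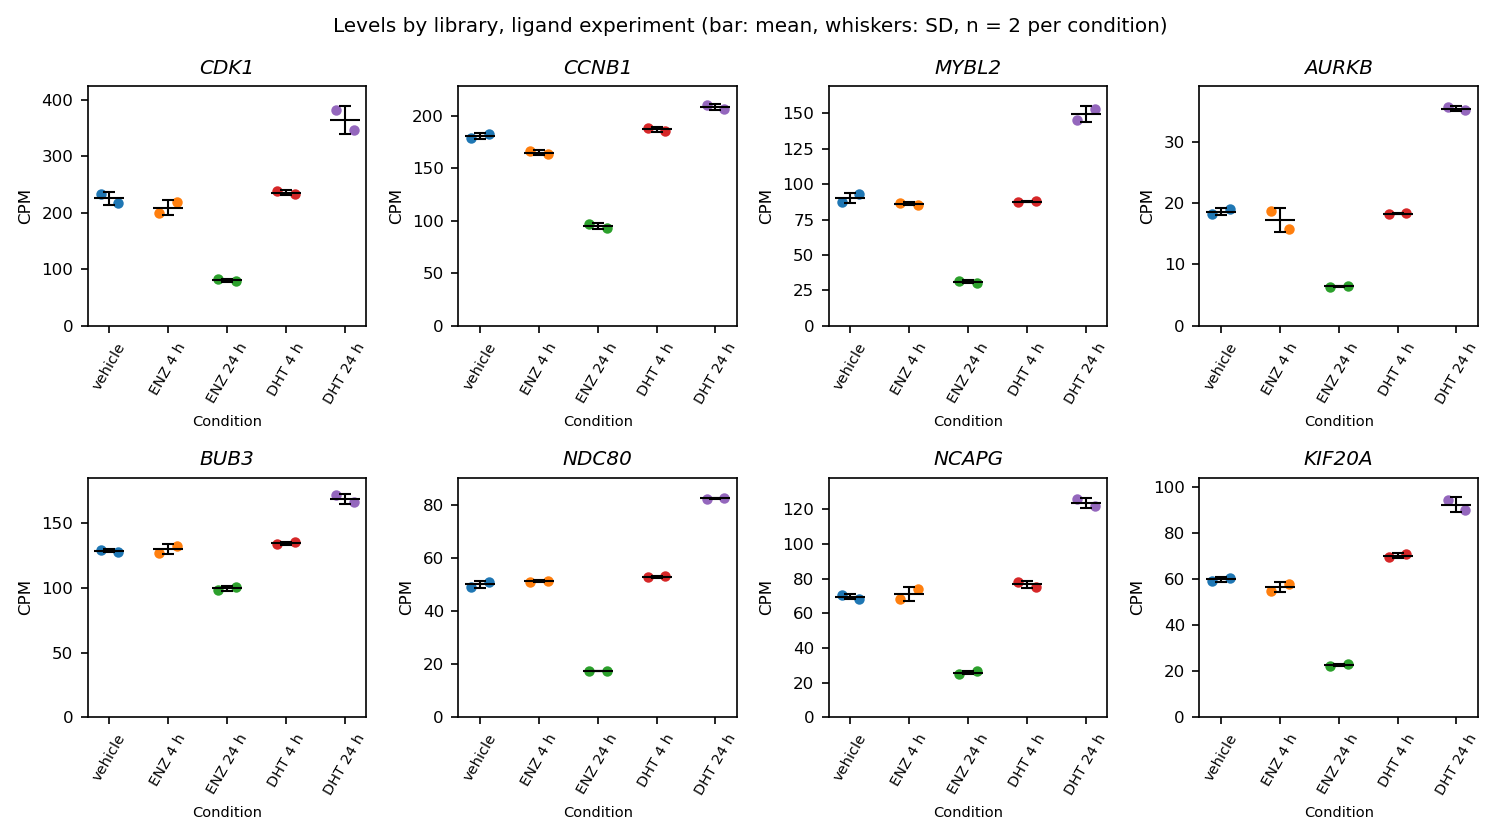
CPM of 8 members in each ligand library (points), with the mean (bar) and SD (whiskers) of the 2 replicates per condition. CDK1 lies at 82.1 and 78.5 CPM after 24 h of enzalutamide and at 381 and 346 CPM after 24 h of DHT, and on the log2 scale BUB3 differs least of the 8 from vehicle after 24 h of enzalutamide and CCNB1 after 24 h of DHT.

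Per the paper, the siRNA experiment asked whether transcription induced by enzalutamide depends on GATA2, a zinc finger transcription factor. The targeted gene was examined first. GATA2 measured 83.8, 77.03 and 86.1 RPKM in siControl vehicle and 54.3, 53.4 and 46.6 RPKM in siGATA2 vehicle, while under enzalutamide it measured 128, 132 and 128 RPKM in siControl and 60.1, 64.7 and 61.5 RPKM in siGATA2 cells. All siGATA2 libraries lay below all siControl libraries, so the labels and the target go the same way, with much GATA2 RNA left. The log2 difference, on the log2(RPKM + 0.1) scale used for all siRNA fold changes, was -0.68 in vehicle and -1.06 under enzalutamide (limma, Benjamini-Hochberg adjusted p = 3.12e-06 and 1.07e-07, 3 libraries below 3 in each). KLK3 fell from 816, 765 and 793 RPKM to 26.3, 24.2 and 21.7 RPKM with siGATA2 in vehicle. TMPRSS2 went from 66.01, 59.4 and 64.05 to 22.9, 22.3 and 20.3 RPKM. Under enzalutamide KLK3 stood at 307, 294 and 256 RPKM in siControl and 17.6, 19.03 and 18.8 RPKM in siGATA2 cells. TMPRSS2 stood at 46.3, 46.9 and 46.1 RPKM in siControl and 21.2, 21.9 and 21.8 RPKM in siGATA2 cells under enzalutamide. In the ligand experiment, without siRNA, GATA2 measured 223 and 237 CPM in vehicle, 184 and 167 and 201 and 203 CPM after 4 h and 24 h of enzalutamide, and 184 and 186 and 178 and 187 CPM after 4 h and 24 h of DHT.

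In siControl cells 25 µM enzalutamide lowered all 52 members, where 24.4% of the 20369 genes tested fell and 17.7% rose. In all 52 the 3 treated libraries lay below the 3 vehicle libraries, and the share of all genes with that order was not counted. No member rose (0 by limma, 0 at an unadjusted p under 0.05). The median log2 change was -0.73, leaving the median member at 60.2% of vehicle. SPC25 measured 6.398, 6.23 and 7 RPKM in vehicle and 2.32, 1.85 and 1.54 RPKM under enzalutamide, the largest fall at -1.75 (SE 0.11, limma, Benjamini-Hochberg adjusted p = 1.04e-06, 3 libraries below 3). Its treated libraries spread widely for so low a level, but none came near vehicle. MYBL2 went from 42.7, 40.2 and 42.6 RPKM to 14.01, 13.6 and 13.4 RPKM (-1.60), and the condensin I subunit NCAPH from 6.45, 6.43 and 6.39 to 2.31, 2.23 and 2.23 RPKM (-1.47). CDK1 went from 153, 162 and 152 RPKM to 64.4, 60.4 and 60.7 RPKM (-1.33), AURKB from 15.9, 15.4 and 15 to 7.03, 7.79 and 7.25 RPKM (-1.06). CCNB1 went from 51.2, 55.8 and 52.9 RPKM to 35.98, 34.3 and 36.5 RPKM (-0.58) and BUB3 from 40.6, 41.8 and 39.99 to 32.1, 31.2 and 33.97 RPKM (-0.33), the smallest fall of the 52. In each of these genes the treated and vehicle groups were apart.

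By role, median changes with enzalutamide in siControl cells ran from -0.55 in anaphase promotion and sister separation to -1.17 in the transcription factors, with -1.05 in condensin and topoisomerase and -0.62 in mitotic entry. The kinesin KIF11 went from 9.98, 11.2 and 10.3 RPKM to 4.71, 4.32 and 4.54 RPKM (-1.19), and PLK1 from 30.6, 28.3 and 28.9 to 19.2, 19.9 and 20 RPKM (-0.57). CENPA went from 8.12, 9.67 and 9.39 to 6.57, 6.89 and 7.66 RPKM (-0.36), one of the smaller falls, whereas in the ligand experiment it fell by more than most members (-1.29). Across the 52 members, log2 changes with 10 µM enzalutamide for 24 h in the ligand experiment and with 25 µM in siControl cells, which share no library, had a Pearson correlation of 0.566 and a Spearman correlation of 0.585. The fall was larger in the ligand experiment in 47 of 52 members at the lower dose. Across the same genes, the log2 changes with DHT for 24 h and with enzalutamide in siControl cells had correlations of -0.658 (Pearson) and -0.655 (Spearman), so members that rose more with DHT tended to fall more with enzalutamide. These are descriptions across genes, and genes are no independent replicates; the experiments also differ in transfection, sequencing and units.

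Knockdown of GATA2 alone lowered the group in vehicle. With siGATA2 all 52 members had lower levels than with siControl, where 31.4% of all genes tested were lower and 24.2% higher. In all 52 the groups did not overlap, and the share of all genes with that order was not counted. No member was higher (0 by limma, 0 at an unadjusted p under 0.05). The median log2 difference was -0.64, against -0.03 over all genes. BIRC5 measured 31.5, 30.5 and 32.2 RPKM in siControl and 12.6, 12.3 and 12.3 RPKM in siGATA2 vehicle libraries, the largest difference at -1.33 (SE 0.025, limma, Benjamini-Hochberg adjusted p = 6.67e-11, 3 libraries below 3). MYBL2 stood at 19.5, 20.1 and 19.9 RPKM with siGATA2 (-1.07) and CENPA at 4.13, 4.86 and 4.76 RPKM (-0.97). These levels were 39.7%, 47.5% and 51.1% of siControl. CDK1, at 124, 123 and 125 RPKM (-0.33), and BUB3, at 33.99, 33.9 and 35.3 RPKM (-0.24), were among the least lowered. By role the chromosomal passenger complex was lowest (median log2 change -0.91, range -1.33 to -0.69) and the spindle checkpoint least changed (median log2 change -0.54, range -0.80 to -0.24).

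Under enzalutamide the levels in siGATA2 and siControl cells no longer differed in one direction. Of the 52 members, 17 were lower and 17 higher with siGATA2, beside 28.1% and 26.3% of all genes tested. These shares are near those of the members, so the counts are no result about the group, and the median log2 difference was -0.01. CENPA (3.89, 4.29 and 3.91 RPKM, -0.79), the spindle kinase AURKA (-0.57) and BIRC5 (10.8, 10.4 and 10.5 RPKM, -0.55) had the lowest values relative to siControl. AURKA measured 7.84, 7.89 and 9.24 RPKM in siControl and 5.45, 5.67 and 5.57 RPKM in siGATA2 cells under enzalutamide. In the other direction, CDK1 stood at 114, 108 and 112 RPKM, above every siControl library under enzalutamide (0.85, limma, Benjamini-Hochberg adjusted p = 1.16e-08, 3 libraries above 3), with SPC25 at 2.82, 3.06 and 2.96 RPKM (0.62) and NCAPH at 3.42, 3.03 and 3.31 RPKM (0.51). The other 14 higher members included the condensin subunits SMC4 (0.50) and SMC2 (0.35), KIF11 (0.50), SPC24 (0.44), ANLN (0.39) and TTK (0.31), named after their values were seen. Condensin and topoisomerase had 4 of 6 members higher and 1 lower, and the passenger complex had 3 of 4 lower and 0 higher by limma, also 0 at an unadjusted p under 0.05. Both roles hold few genes, the other roles are not given here, and no difference between roles was tested. BUB1B (0.16) lost its call without siControl enzalutamide replicate 2 or 3, siControl vehicle replicate 1 or 3, siGATA2 enzalutamide replicate 1 or 3 or siGATA2 vehicle replicate 2 (log2 differences of 0.12 to 0.16), and with the replicate number as a block (limma, Benjamini-Hochberg adjusted p = 0.0744 in place of 0.0466, log2 difference 0.16, 3 libraries against 3). NDC80 (0.19) lost it without siControl enzalutamide replicate 1 (0.17) or 2 (0.14) or siGATA2 enzalutamide replicate 1 (0.15) or 3 (0.18), and CKS2 (0.13) without siControl enzalutamide replicate 1 (0.085) or siGATA2 enzalutamide replicate 3 (0.096), and both lost it in a fit of only the 2 conditions (limma, Benjamini-Hochberg adjusted p = 0.0666 and 0.0573, log2 differences 0.19 and 0.13, 3 libraries against 3). BUB1B also lost it with a pseudocount of 1, without a filter and without a variance trend.

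In siGATA2 cells enzalutamide had a small effect on the group, and most of the calls depended on the fit. By limma 9 of 52 members fell, where 0.191% of all genes tested fell and 0.221% rose. No member rose (0 by limma, 0 at an unadjusted p under 0.05), and 37 of 52 were lower at an unadjusted p under 0.05. The shares of all genes above are at the adjusted p and cannot be set beside those 37, and the share at the unadjusted p is not given here. All 52 log2 changes were below 0, with a median of -0.16, or 89.6% of vehicle. MYBL2 went from 19.5, 20.1 and 19.9 RPKM to 16.2, 16.1 and 16.6 RPKM (-0.28, SE 0.028, limma, Benjamini-Hochberg adjusted p = 0.00285, 3 libraries below 3), AURKB from 8.64, 8.06 and 8.68 to 6.92, 6.89 and 7.03 RPKM (-0.28). PLK1 went from 17.4, 17.2 and 18.5 to 14.5, 14.7 and 14.98 RPKM (-0.26). Groups were apart in these 3 genes, by much less than in siControl cells. The others that fell were BIRC5 (-0.23), TPX2 (-0.13) and, named after their values were seen, the midbody protein CEP55 (-0.25), the kinesin KIF2C (-0.18), the spindle protein NUSAP1 (-0.17) and the midzone bundler PRC1 (-0.14). The count moved with single libraries, to 2, 4 and 3 without siGATA2 enzalutamide replicates 1, 2 and 3 and to 3, 4 and 5 without siGATA2 vehicle replicates 1, 2 and 3. In a fit of only the 2 conditions compared 1 member fell, MYBL2, and AURKB, PLK1, BIRC5 and TPX2 lost their calls (limma, Benjamini-Hochberg adjusted p = 0.0941, 0.0829, 0.0656 and 0.182, 3 libraries below 3 in each). AURKB also lost its call without any 1 of the 3 siGATA2 enzalutamide replicates or siGATA2 vehicle replicate 1 or 3 (log2 changes of -0.29 to -0.26), and PLK1 without siGATA2 enzalutamide replicate 1 (-0.25) or 2 (-0.26). TPX2 lost it when any 1 siRNA library other than siControl enzalutamide replicate 3 was left out (-0.15 to -0.11), and with a mean of at least 1 RPKM, median-centred libraries or no variance trend.

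The difference between the enzalutamide effects was tested directly. The interaction of siRNA and enzalutamide passed in 49 of 52 members, all with a smaller fall in siGATA2 cells, where 15% of all genes tested had a higher and 10.8% a lower interaction. No member had a lower interaction (0 by limma, 0 at an unadjusted p under 0.05), and the median was 0.58. It was largest in SPC25 (1.49), MYBL2 (1.32, SE 0.040, limma, Benjamini-Hochberg adjusted p = 1.09e-07, 12 libraries) and NCAPH (1.23). CDK1 kept 39.8% of its vehicle level under enzalutamide in siControl cells and 90.1% in siGATA2 cells, an interaction of 1.18. The 3 members that did not pass, named after their values were seen, were KIF18A (0.34), the anaphase activator CDC20 (0.19) and CENPA (0.18), with adjusted p of 0.116, 0.0587 and 0.325 (limma, Benjamini-Hochberg, 12 libraries). The siGATA2 cells started from a lower level in vehicle, as given above, so the smaller fall and the lower starting level are measured on the same libraries. By role, medians of the interaction ran from 0.39 in anaphase promotion and sister separation to 0.98 in the transcription factors, with 0.92 in condensin and topoisomerase.

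**Figure D3:**
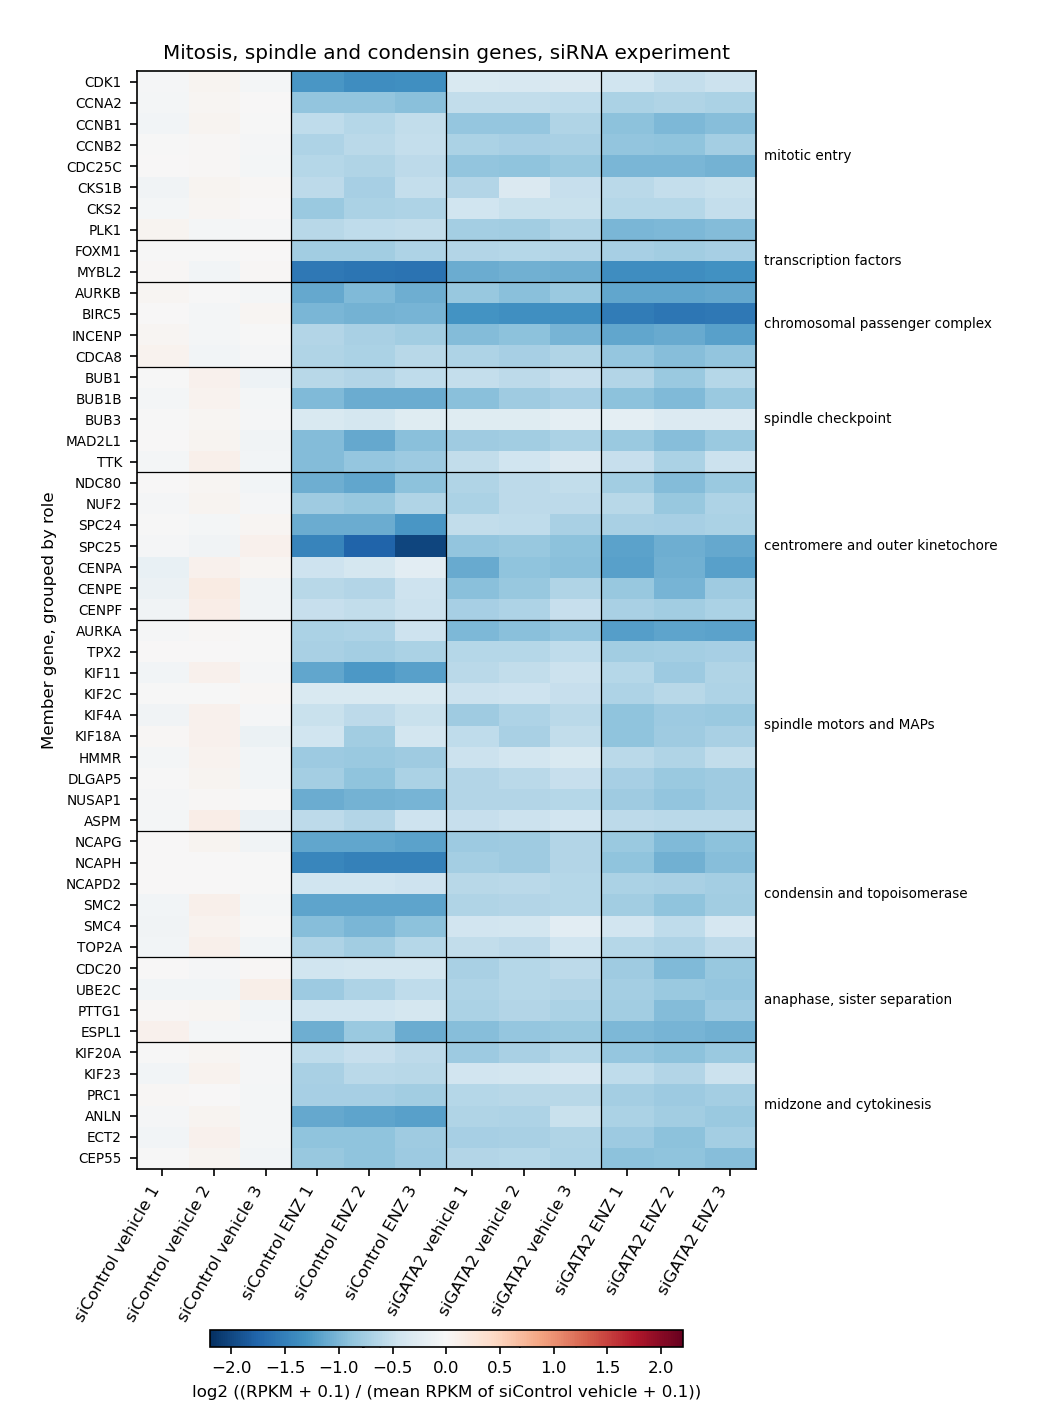
Log2 of each library's RPKM + 0.1 over the mean of the siControl vehicle libraries for the 52 members (rows, by role) in the 12 siRNA libraries (columns). Members are lower in all 3 siControl enzalutamide libraries and in all 3 siGATA2 vehicle libraries, and enzalutamide adds little in siGATA2 cells.

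**Figure D4:**
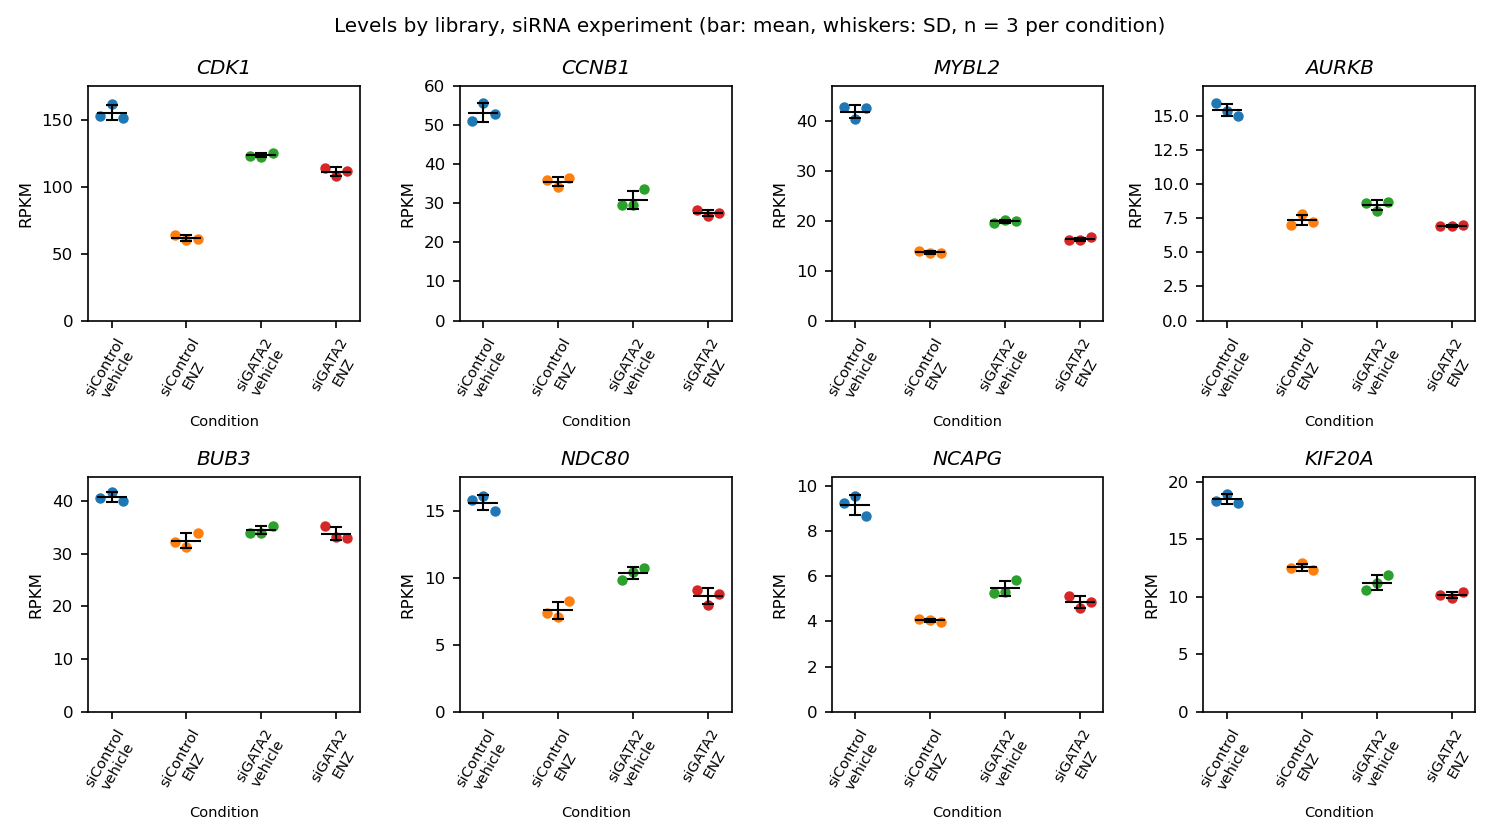
RPKM of 8 members in each siRNA library (points), with the mean (bar) and SD (whiskers) of the 3 replicates per condition. CDK1 lies lowest in siControl cells under enzalutamide, whereas CCNB1 and KIF20A lie lowest in siGATA2 cells under enzalutamide.

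**Figure D5:**
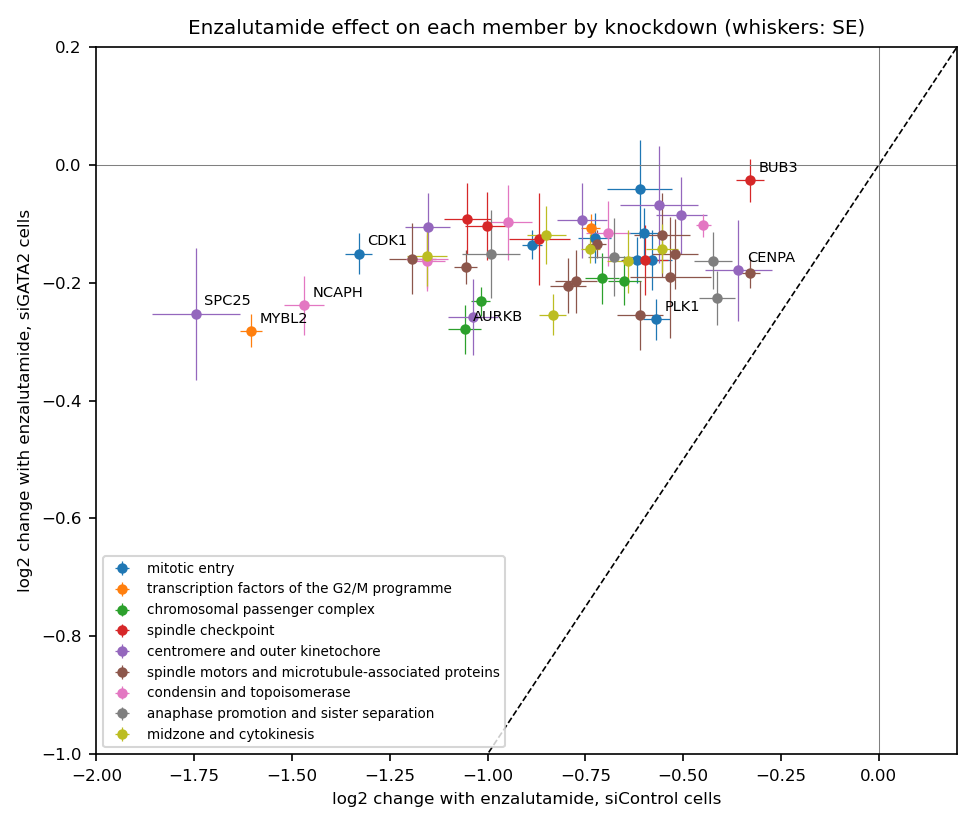
Log2 change with enzalutamide in siControl cells (x axis) and in siGATA2 cells (y axis) for each of the 52 members, coloured by role, with SE as whiskers and a dashed line of equal change. All 52 points lie above the line and below 0, with SPC25, MYBL2 and NCAPH farthest to the left.

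Changes over 2-fold were most frequent in the ligand comparisons with 24 h of enzalutamide. Counted by a fold over 2 with an unadjusted p under 0.05 in the same edgeR or limma fits, with the share of all genes in parentheses, the members were 0 lower (0.354%) and 0 higher (0.399%) for enzalutamide at 4 h, and 41 lower (1.99%) and 0 higher (0.894%) for enzalutamide at 24 h. They were 0 lower (0.289%) and 0 higher (0.906%) for DHT at 4 h, and 0 lower (3.78%) and 0 higher (2.08%) for DHT at 24 h. Between times they were 42 lower (1.7%) and 0 higher (0.604%) for 24 h against 4 h of enzalutamide, and 0 lower (2.93%) and 0 higher (1.61%) for 24 h against 4 h of DHT, and at 24 h 0 lower (6.27%) and 50 higher (5.55%) for DHT against enzalutamide. In the siRNA experiment they were 15 lower (1.53%) and 0 higher (0.599%) for enzalutamide in siControl cells, 0 lower (0.0736%) and 0 higher (0.118%) for enzalutamide in siGATA2 cells, 2 lower (3.78%) and 0 higher (1.87%) for siGATA2 in vehicle, 0 lower (3.78%) and 0 higher (2%) for siGATA2 under enzalutamide, and 0 lower (0.623%) and 7 higher (1.18%) for the interaction. The rises with DHT and the lower levels with siGATA2 were shared by nearly all members but mostly under 2-fold, as the values of CDK1 and FOXM1 (0.36 with DHT and -0.64 with siGATA2 in vehicle) show.

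Other genes of the cell cycle were followed as lists by function. Of 28 genes of DNA replication and G1/S, which act before mitosis, 28 fell after 24 h of enzalutamide (median -1.36), 28 rose after 24 h of DHT (0.93) and 28 fell in siControl cells (-1.79), against 17%, 26.9% and 24.4% of all genes tested. These medians lie farther from 0 than those of the mitotic members, and the difference was not tested. The repressor E2F8 measured 11.7 and 11.9 CPM in vehicle and 3.13 and 3.04 CPM after enzalutamide (-1.93), the replicative helicase component CDC45 went from 22.2 and 22.9 CPM to 6.29 and 6.65 CPM (-1.80), and the initiation factor MCM10 fell by 2.60 in siControl cells. After 4 h of enzalutamide 11 of these 28 genes fell, against 6.68% of all genes tested, among them CCNE1 (-0.54) and CDC25A (-0.48), activators of G1/S. That count was not repeated with libraries left out or in other fits, on which the counts of mitotic members at 4 h depended. With siGATA2 in vehicle 27 of 28 were lower and CCNE1 was higher (0.52, named after its value was seen), and the interaction was higher in 28, where 31.4% of all genes tested were lower and 24.2% higher with siGATA2 in vehicle and 15% had a higher interaction.

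Of the 18 inner kinetochore and KMN genes, neighbours of NDC80 and CENPA, 15 fell with enzalutamide for 24 h and 17 in siControl cells, against 17% and 24.4% of all genes tested, with CENPI (-1.43) and CENPM (-1.34) largest in the ligand experiment. CENPN went from 69.3 and 66.8 CPM in vehicle to 134 and 134 CPM after 4 h of DHT and 239 and 237 CPM after 24 h (0.97 and 1.81). Among the mitotic members the largest log2 change at 4 h of DHT was 0.29, in SPC25. All 3 condensin II genes, which share SMC2 and SMC4 with condensin I, fell with enzalutamide for 24 h (median -0.77) and rose with DHT for 24 h (0.55), against 17% and 26.9% of all genes tested. The 13 APC/C subunits, which CDC20 activates and which act with UBE2C, had 5 lower and 1 higher after 24 h of enzalutamide (median -0.11) and 8 lower in siControl cells, beside 17% lower and 16.4% higher of all genes tested in the former and 24.4% lower in the latter. Of the 11 cohesin genes 5 fell with enzalutamide for 24 h (median -0.10), the lowest being SMC1A (-0.52), against the same 17% of all genes tested. Of 12 MuvB and DREAM genes, whose complexes act on the CHR, 3 fell and 1 rose after 24 h of enzalutamide, shares near the 17% and 16.4% of all genes tested, so these counts are no result about that list, with falls in the MuvB subunit LIN9 (-1.08) and in RBL1 (p107, -0.72).

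Among 6 CDK inhibitors, 3 rose with enzalutamide in siControl cells, where 17.7% of all genes tested rose, among them CDKN2B (1.03) and CDKN1A (0.97). CDKN1A (p21) measured 83.6, 76.3 and 85.3 RPKM in siControl vehicle, 152, 158 and 170.1 RPKM in siControl enzalutamide and 132, 126 and 109 RPKM in siGATA2 vehicle, a pattern opposite to that of the mitotic members. In the ligand experiment 2 fell and 2 rose after 24 h of enzalutamide, beside 17% and 16.4% of all genes tested, with CDKN2C lower (-0.95) and CDKN2B higher (0.89). The androgen targets KLK2 and KLK3 fell with enzalutamide for 24 h (-1.80 and -1.22), rose with DHT at 4 h (2.80 and 1.27) and at 24 h (4.23 and 3.04), and were lower with siGATA2 in vehicle (-5.60 and -5.04).

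Markers of basal epithelium, fibroblasts, leukocytes and endothelium were near 0 apart from COL1A1. Of the 10 genes, 2 passed the filter in the ligand experiment and 7 in the siRNA experiment, and CD3E, named after its values were seen, was at 0 in all 12 siRNA libraries. COL1A1, a fibroblast collagen and the most abundant of them, measured 23.6 and 24.2 CPM in vehicle, 25.7 and 28.5 CPM after 24 h of enzalutamide and 14.4 and 16.1 CPM after 24 h of DHT, while COL1A2, also named after its values were seen, was at 0 in both libraries of each of those treatments. The summed level of the 10 genes was 23.7 and 24.4 CPM in vehicle, 25.6 and 21.01 after enzalutamide for 4 h, 25.8 and 28.6 for 24 h, 23.4 and 22.97 after DHT for 4 h, and 14.9 and 16.7 for 24 h. In RPKM it was 10.7, 9.74 and 10.2 in siControl vehicle, 13.1, 12.4 and 11.9 in siControl enzalutamide, 16.3, 15.3 and 12.8 in siGATA2 vehicle and 14.2, 16 and 13.9 in siGATA2 enzalutamide libraries. KRT14 rose with DHT for 24 h (3.49) from levels under 1 CPM, and COL1A1 fell (-0.65). In siControl cells KRT14, a basal keratin, went from 0.113, 0.0793 and 0.0728 RPKM in vehicle to 0.0271, 0 and 0.00819 RPKM with enzalutamide (-0.75) and stood at 0.0267, 0.0178 and 0.00840 RPKM with siGATA2 in vehicle (-0.68). COL1A1 went from 10.6, 9.62 and 10.1 RPKM to 13.04, 12.4 and 11.9 RPKM with enzalutamide (0.30) and stood at 16.3, 15.2 and 12.8 RPKM with siGATA2 in vehicle (0.54). KRT14 thus fell and COL1A1 rose in the comparisons in which all 52 mitotic members fell in the siRNA experiment, and both passed the test there, though COL1A1 lost its call in siControl cells without siControl enzalutamide replicate 1 or siControl vehicle replicate 2 (0.26 in each). Their part in the values of the mitotic members was not tested. Of the 52 members, 18 overlap another coding gene in the GENCODE v29 annotation, 4 of them on the same strand and 14 on the opposite strand, and their values are uncertain, since reads of such pairs can be split or, on opposite strands, mixed where strand is not used. The labels name a strand-specific (directional) library kit, and whether the counting used strand is not given in the sources used here. Members in such pairs were CCNA2, CDC25C, PLK1, FOXM1, BUB1B, NUF2, SPC24, SPC25, CENPA, KIF4A, KIF18A, NUSAP1, NCAPG, NCAPD2, SMC4, KIF20A, PRC1 and ANLN.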

How the data were processed

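RNA-seq of LNCaP cells was analysed from deposited gene tables. Per the labels and methods, the authors aligned poly(A) reads to hg19 with TopHat2 2.0 and quantified them in Partek. They deposited estimated counts for the ligand experiment and RPKM values for the siRNA experiment. Estimated counts were rounded, the 3 columns of vehicle replicate 1 summed, and 15555 genes passing filterByExpr tested with edgeR 4.0.16 (quasi-likelihood, TMM, R 4.3.3) over 10 libraries. For RPKM, limma 3.58.1 with a trend in the variance was fitted to log2(RPKM + 0.1), using the 20369 genes that exceeded 0 in 3 or more of 12 libraries. Genes were called at a Benjamini-Hochberg adjusted p under 0.05 over all genes tested. Both were tested on simulated data. Alternatives were DESeq2 1.42.0, other scalings, filters and pseudocounts, the replicate block and each library left out. Chosen after seeing the data were vehicle of the same set code and the set code as a term with the 4 vehicle columns as samples. The members and lists were chosen with earlier results of these data known. Named genes were 20 set members, the 3 largest falls and rises among called members per comparison, members against the majority, the 2 largest called changes per other list, GATA2, KLK3 and TMPRSS2; those outside this rule are marked in the text. E2F motifs and proteins were not analysed here, and some list genes are not reported here.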

Additional observations from a re-analysis of the deposited data

Results flagged for a closer look

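Effects of enzalutamide differed between siControl and siGATA2 cells by a test of the difference itself, with 49 members having a higher interaction and 0 a lower one by limma (0 also at an unadjusted p under 0.05). The interaction was 1.49 on the log2 scale for SPC25, 1.32 for MYBL2 and 1.23 for NCAPH. Levels also differed between times, for which vehicle has no labelled counterpart, with 52 members lower at 24 h than at 4 h of enzalutamide and 51 higher at 24 h than at 4 h of DHT. With the set code as a term and the 4 vehicle columns as samples, chosen after seeing the data, 52 and 49 did so.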

How the results depend on the processing

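With a rule of a fold over 2 and an unadjusted p under 0.05, 0 members fell and 0 rose with enzalutamide at 4 h, 0 rose with DHT at 4 h, 0 at 24 h and 0 at 24 h against 4 h, 15 fell in siControl cells and 0 in siGATA2 cells, 2 were lower with siGATA2 in vehicle, 0 lower and 0 higher under enzalutamide, and 7 had a higher interaction. That rule asks for a larger change, which lowers these counts by construction. The count that fell with enzalutamide at 4 h was 9 with 4 vehicle columns as samples and 0 in a fit of only the 2 conditions (rose 0). With the set code as a term and the 4 vehicle columns as samples 1 rose. Vehicle of the same set code leaves 1 vehicle sample there, and its values are given above. By DESeq2 1 rose with DHT at 4 h, and in a fit of only the 2 conditions 1 fell in siGATA2 cells. Median log2 changes were 0.52 with DHT at 24 h and 1.71 for DHT against enzalutamide with library totals, and -0.56 with siGATA2 in vehicle with median-centred libraries; the cause was not tested. With vehicle of the same set code, which leaves 1 vehicle sample, median log2 changes were -1.20 with enzalutamide and 0.54 with DHT at 24 h. With the set code as a term and the 4 vehicle columns as samples, 52 fell with enzalutamide and 50 rose with DHT, medians -1.20 and 0.54. Leaving out 1 library, 0 to 5 fell and 0 to 4 rose with enzalutamide at 4 h, 0 to 4 rose with DHT at 4 h and 2 to 11 fell in siGATA2 cells, while other counts stayed within 1.5 times.

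Same-numbered ligand replicates correlated by -0.103 to 0.0633 and siRNA replicates by -0.342 to 0.28, so the numbers were not read as pairs except between siControl and siGATA2 cells under enzalutamide (0.113, 0.241 and 0.148). With the replicate number as a block, enzalutamide gave 2 members lower at 4 h and 52 at 24 h, DHT 2 and 51 higher, siControl cells 52 and siGATA2 cells 3 lower, siGATA2 52 lower in vehicle and 17 lower and 16 higher under enzalutamide, and the interaction 49 higher.

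Among 9421 values of single genes over the alternatives, 8123 belonged to 415 called results, and of those values 0 changed direction and 211 lost the call. CDKN2B at 4 h of enzalutamide had no adjusted p by DESeq2 and is not among these values. The set code as a term was always fitted with the 4 vehicle columns as samples. These changes were made together and are counted below as a single choice. Of genes not called, 51 values changed sign, and the cause was not tested. With one choice changed these were BUB1 -0.0012 with library totals for enzalutamide at 4 h, BUB1 -0.055, BUB3 -0.032, CENPA -0.14, KIF11 -0.0065, NCAPG -0.033 and UBE2C 0.042 with vehicle of the same set code for enzalutamide at 4 h, MYBL2 0.0093, BUB1 -0.043, BUB3 -0.024, CENPA -0.19, KIF11 -0.043 and NCAPG -0.042 with the set code as a term for enzalutamide at 4 h, UBE2C -0.014 and CKS2 -0.0088 with library totals for DHT at 4 h, UBE2C -0.00095 with a filter of 1 CPM in 2 libraries for DHT at 4 h, CENPA 0.058, UBE2C -0.025 and CKS2 -0.0020 with vehicle of the same set code for DHT at 4 h, CENPA 0.058, UBE2C -0.025 and CKS2 -0.0019 with the set code as a term for DHT at 4 h, GATA2 0.015 with the set code as a term for DHT at 24 h against 4 h, TMPRSS2 0.0053 with median-centred libraries for enzalutamide in siGATA2 cells and FOXM1 0.030 and TPX2 0.018 with median-centred libraries for siGATA2 under enzalutamide. For enzalutamide at 4 h the ranges with 1 library left out were FOXM1 -0.058 to 0.012, AURKB -0.23 to 0.0015, BUB1 -0.024 to 0.036, BUB3 -0.021 to 0.042, CENPA -0.067 to 0.18, TPX2 -0.059 to 0.020, NCAPG -0.036 to 0.087 and CKS1B -0.087 to 6.3e-05. For DHT at 4 h the ranges with 1 library left out were MYBL2 -0.082 to 0.0031, AURKB -0.053 to 0.010, CENPA -0.18 to 0.072, TPX2 -0.0053 to 0.074 and UBE2C -0.039 to 0.047. For DHT at 24 h against 4 h the ranges with 1 library left out were GATA2 -0.061 to 0.0082. For enzalutamide in siGATA2 cells the ranges with 1 library left out were CKS1B -0.12 to 0.048 and TMPRSS2 -0.065 to 0.024. For siGATA2 under enzalutamide the ranges with 1 library left out were FOXM1 -0.025 to 0.018.

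No proteins were compared. Leaving out 1 ligand library leaves 1 sample in that condition, which is then assumed to vary like the other groups. Vehicle of the same set code also leaves 1 vehicle sample, except for DHT at 4 h. With 2 ligand replicates a condition, small changes such as those at 4 h are poorly resolved.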
